A study of Saccharomyces cerevisiae with 8 samples.

Results

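Glycogen is the branched glucose polymer that yeast stores when nutrients run short and draws on when it sporulates. The primer proteins glycogenin, Glg1 and Glg2, attach the first glucose units to themselves, the glycogen synthases Gsy1 and Gsy2 extend the chain, and the branching enzyme Glc3 adds the branches. Breakdown in the cytosol needs glycogen phosphorylase, Gph1, and the debranching enzyme Gdb1, while the glucoamylase Sga1 is made in sporulating cells and releases glucose directly.

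The 8 genes of these steps, GSY1 (YFR015C), GSY2 (YLR258W), GLG1 (YKR058W), GLG2 (YJL137C), GLC3 (YEL011W), GPH1 (YPR160W), GDB1 (YPR184W) and SGA1 (YIL099W), were taken by their annotated symbols from the 5656 genes of the array. All 8 passed the filter on low values that left 5475 genes to be tested, and they are read by 9 probe sets, of which SGA1 has 2. Where a gene had several, the plain probe set with the highest mean was used, and the second one of SGA1 is given beside it. The probe letters were not used here, so cross-hybridisation between the related pairs GSY1 and GSY2, and GLG1 and GLG2, was not examined.

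RNA came from diploid Saccharomyces cerevisiae of the SK1 background, in which sporulation is rapid. There was 1 array for each of 4 strains (wild type MJL1720, mre11delta YMD1599, rad50delta RKD101 and spo11Y135F RKD1312) at 0 h and at 4 h, 8 arrays in all. At 0 h the cells had grown in acetate-based presporulation medium, and at 4 h they had spent that time in potassium acetate sporulation medium. Mre11 and Rad50 belong to a complex that makes and processes meiotic DNA breaks, and spo11Y135F lacks the catalytic tyrosine of the enzyme that cuts the DNA. RNA of wild type at 0 h and of both arrays labelled mre11delta was extracted with Trizol, and RNA of the other 5 arrays with glass beads and RNeasy columns. Wild type at 4 h is thus an RNeasy array, and wild type is the strain whose method differs between the times.

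The mutated genes were read first. In rad50delta RAD50 read 0.6 and then 3.4, against 88.4 to 758.2 elsewhere. The arrays labelled mre11delta had an MRE11 signal of 84.0 and 108.0, and the other arrays one of 45.0 to 192.4, so its probes do not check that label and every direction for it rests on the label alone. SPO11 carries a point mutation, and its level checks nothing. All 10 of 10 meiotic prophase markers rose, and their summed signal ran from 126.0 to 560.6 at 0 h and from 9566.2 to 19061.8 at 4 h. In the limma test described below, 10.6% of all tested genes rose and 4.02% fell. Of 9 haploid or mating-type markers 2 rose, STE3 and MFA1, with a summed signal of 322.4 to 690.1 at 0 h and 1046.2 to 1822.2 at 4 h, and STE2 lay below 21, the floor set for low values, in all 4 strains at 0 h. The probe set used for MFA1 was not gene-specific, so other transcripts may add to its signal. Among 4 tested markers of dividing cells 1 fell, CHS2, and the sum over the 5 on the array ran from 372.2 to 576.5 and from 139.2 to 4775.4. CDC20 made up most of the high sums, at 4562.8 in spo11Y135F and 2154.7 in rad50delta at 4 h. It read 112.3 in wild type and 174.0 in the array labelled mre11delta at that time, a split that most of the sporulation genes described below also had. The other markers of dividing cells read 83.5 or less at 4 h. The part of such cells in the results was not tested. Median signals ran from 97.3 to 196.4 over the arrays, and the number of arrays limits the precision.

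With 1 array per strain and time, values of single strains carry no error and differences between strains have no test. Time was tested with limma, a linear model fitted to all genes, over the 4 strains as pairs. Changes are differences of log2(signal + 7), the added 7 damping low values, and folds are taken on that scale. The p-values rest on the spread of the changes between these strains, combined with a variance that limma pools over genes. They hold no spread between repeat cultures of a strain. In wild type the change of extraction method enters that spread too.

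The levels of the glycogen genes differed by strain already at 0 h. At that time 6 of the 8, GSY1, GSY2, GLG1, GLC3, GPH1 and SGA1, were at least 2-fold higher in both rad50delta and spo11Y135F than in both other strains, a pattern that 7.43% of all tested genes showed. GDB1 was also higher in both, but by 1.49-fold at the narrowest gap. GLG2 ran the other way and was at least 2-fold lower in both, as were 10.1% of all tested genes. At 0 h the wild type and mre11delta arrays were both extracted with Trizol and the other pair with RNeasy, so at this time strain and extraction method cannot be told apart. In such bulk RNA, fewer cells of a type and less RNA per cell cannot be told apart either.

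**Figure D1:**
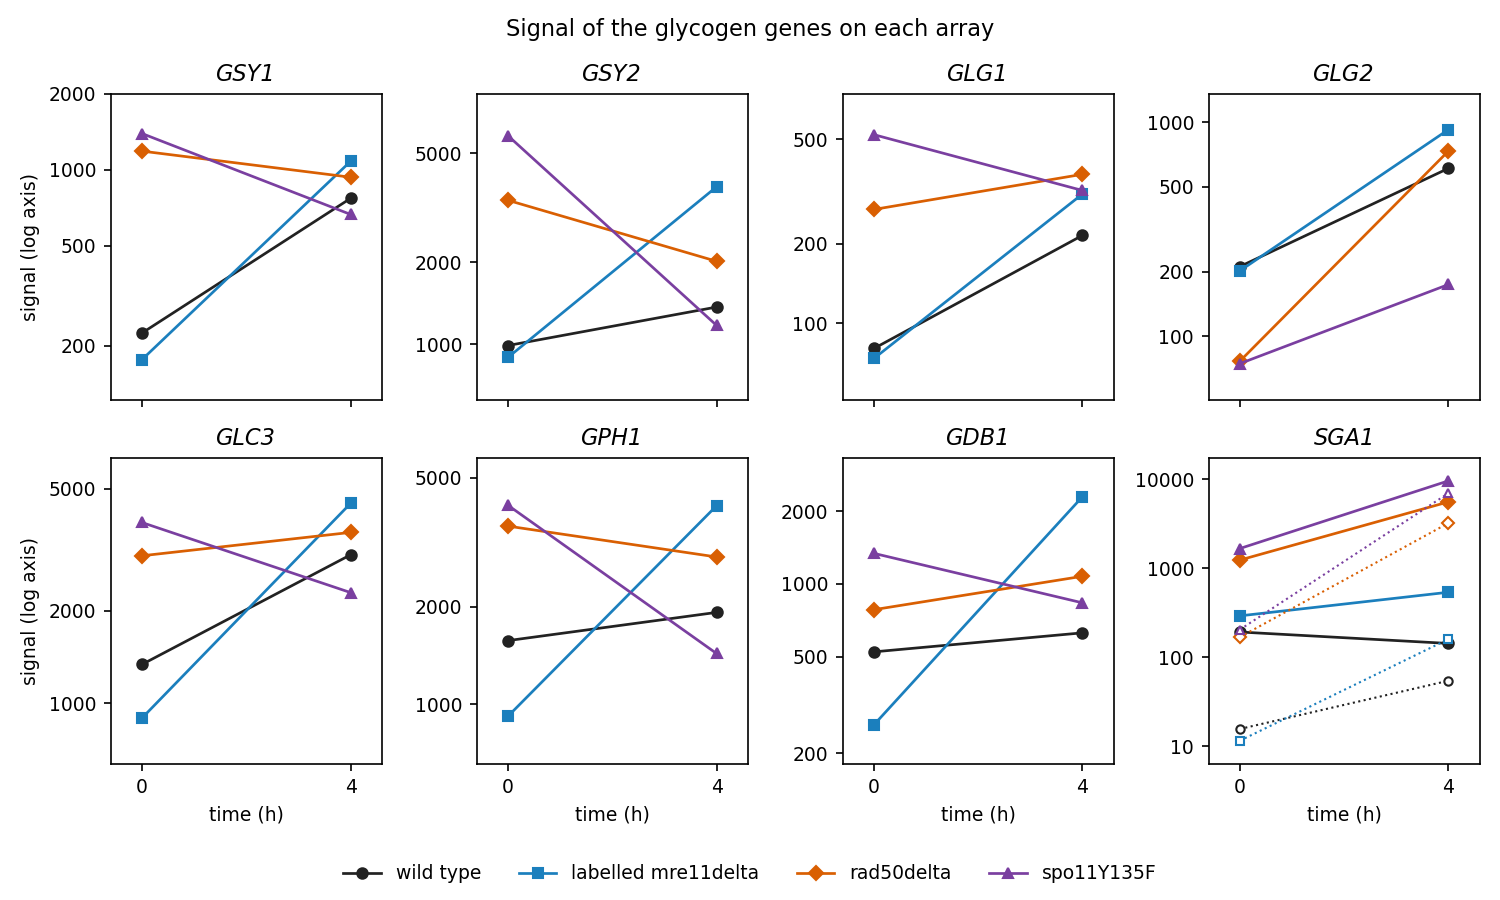
Signal of the 8 glycogen genes (vertical, log axis, 1 panel per gene with its own range) at 0 h and 4 h (horizontal, hours), 1 point per array and 1 line per strain. Dotted lines with open points are the second probe set of SGA1. In 6 panels the lines of wild type and of the arrays labelled mre11delta climb, while the line of spo11Y135F starts highest and descends.

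Initiation is the step of the glycogenins. GLG1 had a signal of 80.1 in wild type, 73.4 in the array labelled mre11delta, 270.5 in rad50delta and 520.4 in spo11Y135F at 0 h. At 4 h it read 215.6, 309.7, 367.9 and 319.3 in the same order. The 0 h values of wild type and the array labelled mre11delta were thus the low ones, and by 4 h the strains lay within 1.68-fold of each other. Its mean change was 0.77 ± 0.57 (SE, n = 4 strains, limma adjusted p = 0.416), with a 95% interval of -0.42 to 1.96.

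GLG2, the second glycogenin, behaved unlike GLG1. It read 211.8 in wild type, 202.2 in the array labelled mre11delta, 76.4 in rad50delta and 74.4 in spo11Y135F at 0 h. The 4 h signals were 610.2, 926.8, 735.6 and 174.5. It was higher at 4 h in 4 of 4 strains, by 2.82-fold in wild type, 4.46-fold in the pair labelled mre11delta, 8.9-fold in rad50delta and 2.23-fold in spo11Y135F. The level in spo11Y135F at 4 h stayed below the wild type level of 0 h, so the times overlap. GLG2 rose by 1.99 ± 0.56 in log2 (SE, n = 4 strains), or 3.98-fold, with limma's adjusted p = 0.0184, and was the only one of the 8 to pass the test. Over all tested genes 14.6% passed, 10.6% as higher and 4.02% as lower, which is 582 and 220 genes. With median centring those counts were 409 and 560, and with quantile normalization 418 and 392. With wild type left out GLG2 no longer passed (adjusted p = 0.0682), nor with rad50delta left out (adjusted p = 0.22).

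At 4 h spo11Y135F was at least 2-fold below all other strains for GLG2, as it was for 9.41% of tested genes, and wild type was 3.4-fold above it.

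For both glycogen synthase genes the direction of the difference between the times was not the same in all strains. The strains that rose had Trizol extracts at 0 h and those that fell had RNeasy extracts. Strain and extraction method thus cannot be told apart in this difference. GSY1, the minor isoform, read 224.8 in wild type, 176.3 in the array labelled mre11delta, 1186.0 in rad50delta and 1393.1 in spo11Y135F at 0 h. The corresponding 4 h values were 769.9, 1080.0, 934.4 and 665.0. The gap of 5.15-fold or more between the pairs of strains at 0 h had gone by 4 h, when the highest and lowest strain differed by 1.62-fold. GSY1 was 3.35-fold higher at 4 h in wild type and 5.93-fold higher in the pair labelled mre11delta, and lower by 1.27-fold in rad50delta and 2.08-fold in spo11Y135F.

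GSY2, the major isoform, read 988.7, 893.9, 3368.0 and 5809.2 at 0 h in wild type, the array labelled mre11delta, rad50delta and spo11Y135F. At 4 h it read 1367.9, 3772.2, 2013.1 and 1172.5. The highest strain of 0 h, spo11Y135F, was the lowest at 4 h and 4.93-fold below its own 0 h level, while the array labelled mre11delta went from lowest to highest and was 4.19-fold above its own. Its mean change over strains was -0.13 ± 0.57 (adjusted p = 0.909, limma), with a 95% interval of -1.31 to 1.05, and that of GSY1 was 0.73 ± 0.63 (adjusted p = 0.491), with an interval of -0.59 to 2.05. In a fit of rad50delta and spo11Y135F alone, the strains with RNeasy extracts at both times, GSY2 fell by 1.52 in log2 (adjusted p = 0.00989, limma), and this rests on 1 residual degree of freedom per gene before limma's pooling over genes.

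GLC3, the branching enzyme, had a signal of 1337.7 in wild type, 894.7 in the array labelled mre11delta, 3021.2 in rad50delta and 3876.7 in spo11Y135F at 0 h. It read 3042.1, 4472.7, 3599.1 and 2292.9 at 4 h. Wild type and the pair labelled mre11delta were 2.27-fold and 4.97-fold higher at 4 h, rad50delta 1.19-fold higher, and spo11Y135F 1.69-fold lower. The mean change of 0.75 ± 0.48 did not pass the test (limma adjusted p = 0.342, 95% interval -0.26 to 1.75).

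Of the breakdown enzymes, GPH1, the phosphorylase, read 1573.0, 919.7, 3543.0 and 4108.4 at 0 h in wild type, the array labelled mre11delta, rad50delta and spo11Y135F. Its 4 h signals were 1921.4, 4091.9, 2846.8 and 1435.8. The order of the strains turned as for GSY2, with spo11Y135F going from highest to lowest, 2.85-fold below its 0 h level, and the array labelled mre11delta from lowest to highest, 4.42-fold above its own. GDB1, which trims the branches that phosphorylase leaves, read 524.5, 262.0, 783.3 and 1338.2 at 0 h, and 628.5, 2294.2, 1076.2 and 835.9 at 4 h. In the pair labelled mre11delta GDB1 was 8.55-fold higher at 4 h, the largest such fold in that strain among the 8 genes by their first probe sets, while the second probe set of SGA1 gave 8.98-fold. At 4 h the array labelled mre11delta was at least 2-fold above the other 3 for GDB1, a place it took for 12.2% of all tested genes. It was the only Trizol extract at that time, so strain and extraction method cannot be told apart there. Neither gene passed the test, with mean changes of 0.15 ± 0.52 for GPH1 (limma adjusted p = 0.875, 95% interval -0.92 to 1.23) and 0.78 ± 0.62 for GDB1 (adjusted p = 0.442, interval -0.5 to 2.06).

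The median change of the 8 genes was 0.76, against 0.19 over all tested genes. The 6 genes other than GLG2 and SGA1 shared 1 order of change. In these 6 of the 8 genes the change was largest in the pair labelled mre11delta and smallest in spo11Y135F, which held for 33.6% of all tested genes. The 6 were set apart on these same values, so what they share describes the division and adds no separate support. The median gene itself shifted between the arrays of a strain, by -0.37 in wild type, 0.74 in the pair labelled mre11delta, 0.61 in rad50delta and -0.12 in spo11Y135F. Relative to that shift 4 of the 8 genes, all among the 6, had this order, against 17.1% of all genes. For GSY1 and GLG1 the relative change was then largest in wild type. On the same relative scale all 6 were higher at 4 h in wild type, by 0.63 to 2.11, and in the pair labelled mre11delta, by 1.24 to 2.36. They were lower in rad50delta, by -1.35 to -0.15, and in spo11Y135F, by -2.18 to -0.55. The share of all tested genes with these directions was not counted. Here too strain and the extraction method at 0 h cannot be told apart. The plot of changes shows both scales.

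**Figure D2:**
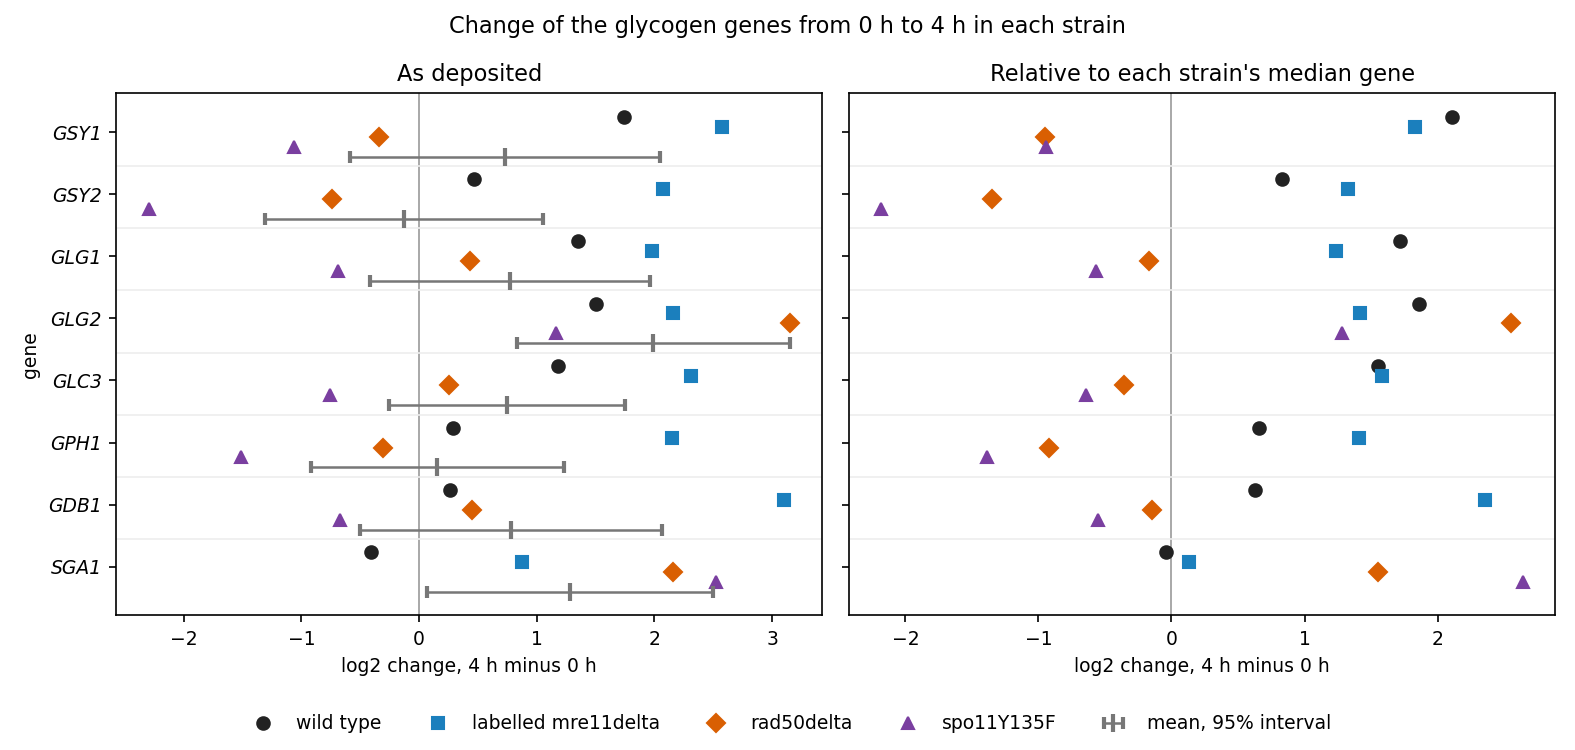
Change of each glycogen gene from 0 h to 4 h (horizontal, difference of log2(signal + 7)) in the 4 strains, as deposited (left) and after subtracting the median change of all 5475 tested genes in that strain (right). Grey bars are limma's mean over the 4 strains with its 95% interval. The intervals of GLG2 and SGA1 lie above 0, and the points of the other 6 genes fall on both sides of it.

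Their strains also drew together. The highest strain exceeded the lowest by 4.31-fold to 7.64-fold at 0 h in these 6 genes, and by 1.62-fold to 3.62-fold at 4 h. Wild type went from a Trizol extract at 0 h to an RNeasy extract at 4 h, so strain and extraction method cannot be told apart here. The range narrowed in these 6 of the 8 genes, whereas it narrowed in 31.1% of all tested genes, whose median spread was 2.07-fold at 0 h and 2.85-fold at 4 h. As the 6 were set apart on these same values, the narrowing describes them and adds no separate support.

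Likeness over the 8 arrays was read from the same values as this division, so it describes the division and adds no separate support. Between any 2 of these 6 genes Pearson's r of log2 signal ran from 0.77 to 0.96, the closest pair being GSY1 and GLC3. GLG2 had an r of -0.18 to 0.27 with them, and SGA1 an r of 0.24 to 0.66. These values are descriptions over 8 arrays that share strains, times, extraction methods and array scaling. After median centring the ranges were 0.71 to 0.97, -0.46 to -0.02 and 0.04 to 0.57.

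**Figure D3:**
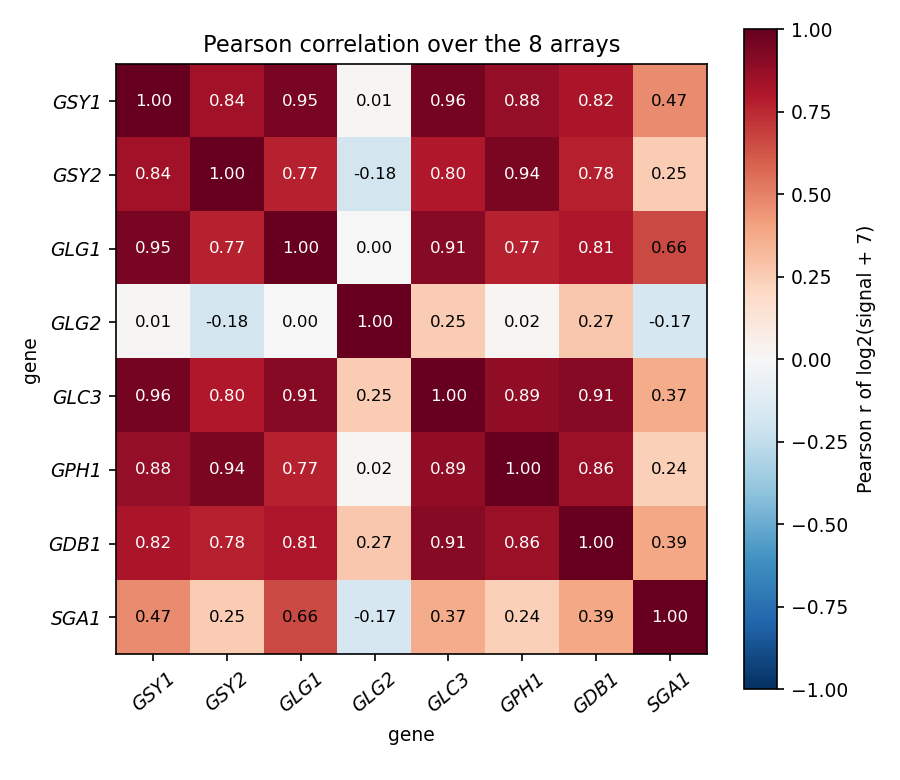
Pearson correlation of log2(signal + 7) over the 8 arrays for each pair of the 8 glycogen genes (both axes are genes, colour and number give r). GSY1, GSY2, GLG1, GLC3, GPH1 and GDB1 form a block at 0.77 or more, and the row of GLG2 holds values between -0.18 and 0.27.

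Among all other genes with a gene-specific probe set, those most like each of the 8 were named by the highest r over the 8 arrays. For GLC3 the first was PGM2, the main phosphoglucomutase that makes glucose 1-phosphate, the precursor of glycogen (r = 0.993). Its signals were 1234.2 and 2968.8 in wild type at 0 h and 4 h, 906.9 and 4714.0 in the arrays labelled mre11delta, 2746.7 and 3809.1 in rad50delta and 3775.7 and 2516.0 in spo11Y135F, so that PGM2 repeats the crossing lines of GLC3. RCN2 (0.992) and SNZ1 (0.99) followed for GLC3. The others were YBR287W, MIG3 and JLP1 for GSY1 (0.984 to 0.992), OCH1, RSC6 and GYP1 for GSY2 (0.972 to 0.988), SKM1, IZH2 and MUD2 for GLG1 (0.985 to 0.992), and SEC59, ULS1 and POL2 for GLG2 (0.979 to 0.993). For GPH1 they were RTN2, YJR096W and NRS1 (0.969 to 0.979), and for GDB1 they were OPY2, FPK1 and STB2 (0.973 to 0.991).

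In SGA1, the glucoamylase of sporulating cells, as in GLG2, the strains lay further apart at 4 h than at 0 h. SGA1 read 192.3 in wild type, 291.8 in the array labelled mre11delta, 1233.9 in rad50delta and 1662.7 in spo11Y135F at 0 h. By 4 h the signals were 143.1, 537.3, 5549.4 and 9552.6. The order of the strains was the same at both times, with wild type lowest and spo11Y135F highest. At 4 h both rad50delta and spo11Y135F lay at least 10.2-fold above the other strains, against 4.15-fold at 0 h, and a gap of at least 2-fold in this direction at 4 h was found for 5.97% of all tested genes. SGA1 was the only glycogen gene with it.

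Against wild type at 4 h, SGA1 was 3.63-fold higher in the array labelled mre11delta, 37.0-fold higher in rad50delta and 63.7-fold higher in spo11Y135F. Wild type, rad50delta and spo11Y135F were extracted with RNeasy columns at this time and the array labelled mre11delta with Trizol. Each strain had 1 array, and the part of extraction method in the gap was not tested. Wild type at 4 h was at least 2-fold below all other strains for SGA1, which it was for 14% of all tested genes.

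The change of SGA1 with time also differed in size. It was 4.48-fold higher at 4 h in rad50delta, 5.73-fold higher in spo11Y135F and 1.82-fold higher in the pair labelled mre11delta, and 1.33-fold lower in wild type. Over the 4 strains the mean change of 1.28 ± 0.58 (95% interval 0.07 to 2.5) did not pass the test over all genes (limma adjusted p = 0.158). In the fit of rad50delta and spo11Y135F alone it rose by 2.34 ± 0.44 (limma adjusted p = 3.03e-06). As for GSY2, this rests on 1 residual degree of freedom per gene before limma's pooling over genes. In that fit 1214 genes passed, against 802 in the fit of all arrays.

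The second probe set of SGA1 gave the same order of strains at 4 h and larger changes. At 0 h it read 15.7 in wild type, 11.6 in the array labelled mre11delta, 168.9 in rad50delta and 204.7 in spo11Y135F, the first 2 below the floor of 21. At 4 h it read 54.6, 160.0, 3210.2 and 6940.9. The probe sets disagree on wild type, where the second was 2.71-fold higher at 4 h and the first 1.33-fold lower. With the second probe set in place of the first, an alternative chosen after seeing the data, SGA1 rose by 3.46 ± 0.60 (limma adjusted p = 0.000335), and with the mean of both it rose by 2.37 ± 0.62 (adjusted p = 0.0115).

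To place SGA1 among genes of spore formation, 12 of them were read beside it. Of the 12, 9 rose and 0 fell, against 10.6% and 4.02% of all tested genes. The list's median change was 4.21 against 0.19 over all tested genes. Several of them, such as SPS2 at 1.0 to 11.7, lay below the floor at 0 h, so that the size of their change depends on the added 7. At 4 h 10 of the 12 were at least 2-fold higher in both rad50delta and spo11Y135F than in both other strains, the pattern of SGA1 and of 5.97% of all genes. NDT80, the transcription factor that turns on the middle genes of sporulation, read 226.2 in wild type, 165.3 in the array labelled mre11delta, 936.3 in rad50delta and 1688.9 in spo11Y135F at 4 h. The kinase gene SPS1 read 144.8, 44.3, 3471.4 and 6494.6 at 4 h, and GIP1, a sporulation subunit of the phosphatase Glc7, read 93.6, 74.1, 1732.8 and 2240.1.

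At 0 h SGA1 read above the floor in all strains with its first probe set, as did NDT80, SPS4, SPR1 and DIT1 among the 12 genes. At 4 h the place of the array labelled mre11delta against wild type varied between the genes. It was higher than wild type for SGA1, and also for DIT1, DIT2 (both arrays below the floor) and SPS100, and lower for the other 9. For SPS1, SPS2, SPS4, SPR3, SPR28 and SMK1 it was at least 2-fold below all other strains, as it was for 1.39% of all tested genes. SPS4, for instance, read 1158.0 in wild type and 47.4 in the array labelled mre11delta. At 4 h that array was the only Trizol extract, so strain and extraction method cannot be told apart in these differences.

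**Figure D4:**
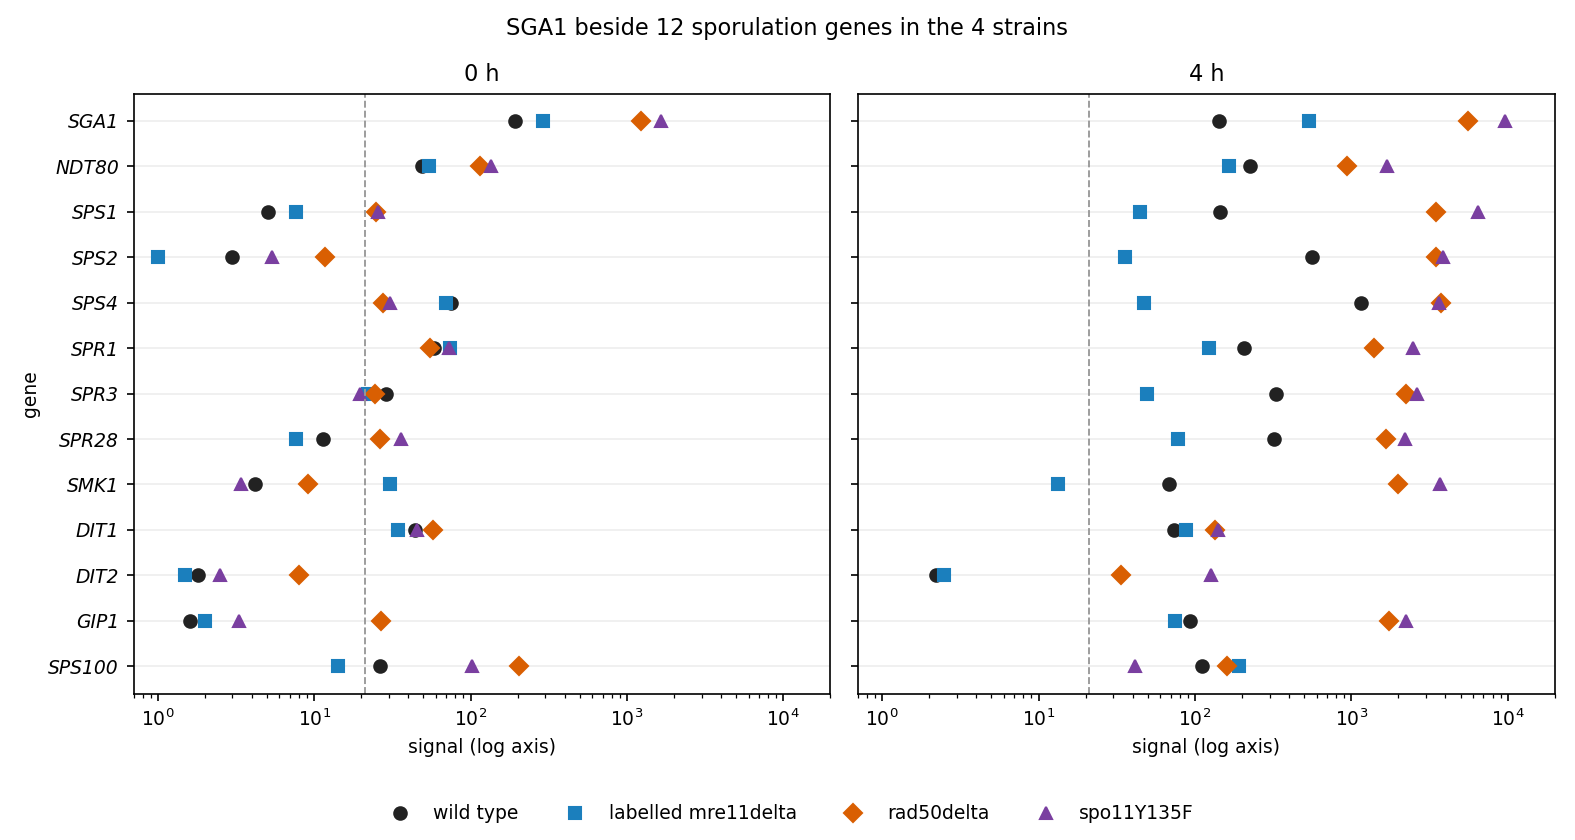
Signal (horizontal, log axis) of SGA1 and 12 sporulation genes (rows) at 0 h (left) and 4 h (right), 1 point per strain. The dashed line is the floor of 21. At 4 h rad50delta and spo11Y135F lie to the right of the other strains for SGA1 and for NDT80, SPS1, SPS2, SPS4, SPR1, SPR3, SPR28, SMK1, DIT1, DIT2 and GIP1, and SPS100 is the exception.

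The number of calls on this list depended on the scaling and on wild type. The 9 rises were NDT80, SPS1, SPS2, SPS4, SPR1, SPR3, SPR28, SMK1 and GIP1. With median centring 6 rose and with quantile normalization 5. Without wild type 6 rose, and in rad50delta and spo11Y135F alone 10. SPS100, a late spore wall gene, read 26.5, 14.2, 202.9 and 102.4 at 0 h and 110.5, 190.9, 159.7 and 41.5 at 4 h in the 4 strains taken in the order used above. It was thus higher at 4 h in wild type and the pair labelled mre11delta and lower in the other 2 strains, as GSY1 and GSY2 were (adjusted p = 0.383, limma). The dityrosine genes DIT1 and DIT2 had mean changes of 1.12 and 1.37 (both adjusted p = 0.143, limma).

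Of all other genes the 5 most like SGA1 over the 8 arrays were EMI2 (r = 0.984), YKL070W (0.967), SSO1 (0.966), SPT2 (0.96) and WSC4 (0.958). EMI2, a relative of the glucose kinases, read 1617.4 and 1132.6 in wild type at 0 h and 4 h, 1285.4 and 2105.1 in the arrays labelled mre11delta, 2602.8 and 5063.3 in rad50delta and 2970.9 and 6361.7 in spo11Y135F. SSO1, a membrane fusion protein of the secretory pathway, reached 2935.7 in rad50delta and 5522.1 in spo11Y135F at 4 h, against 643.4 in wild type. With the 12 sporulation genes the r of SGA1 was 0.25 to 0.86.

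All 6 of the phosphatase genes that regulate glycogen synthase read higher at 4 h in every strain, as deposited. Glc7 is the phosphatase that activates the synthase, and Gac1, Pig1, Pig2 and Gip2 are subunits that direct it, or are thought to, to glycogen. Of these 6 genes with GLC8, a further regulator of Glc7, 3 rose and 0 fell, against 10.6% and 4.02% of all tested genes. All 6 were higher at 4 h in all 4 strains, as were 21.9% of all tested genes. Relative to the median gene of each strain, GLC7 was lower in the pair labelled mre11delta (-0.13) and GLC8 in rad50delta (-0.27), and GAC1, PIG1, PIG2 and GIP2 were higher in all 4 strains. The share of all tested genes higher in all 4 strains on that relative scale was not counted. The median change of the 6 as deposited was 1.78, against 0.19 over all tested genes.

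PIG1 (YLR273C) read 96.6, 74.2, 80.6 and 117.6 at 0 h in wild type, the array labelled mre11delta, rad50delta and spo11Y135F, and 932.9, 1440.3, 1285.5 and 740.9 at 4 h. The times do not overlap, and at both times the strains lay close together. It rose by 3.45 ± 0.56 in log2 (SE, n = 4 strains), or 10.9-fold (limma adjusted p = 0.00017).

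GIP2 (YER054C) read 47.5, 41.9, 97.0 and 137.2 at 0 h and 468.2, 474.9, 846.6 and 269.9 at 4 h, again with no overlap between the times. It rose by 2.60 ± 0.56, or 6.07-fold (limma adjusted p = 0.00269), and no longer passed with wild type left out (adjusted p = 0.0614). PIG2 (YIL045W) read 103.6, 54.7, 166.5 and 235.3 at 0 h and 212.6, 414.3, 716.4 and 1121.9 at 4 h, so that wild type at 4 h lay below spo11Y135F at 0 h. It rose by 2.01 ± 0.55 (adjusted p = 0.016, limma), a call lost without mre11delta (adjusted p = 0.0868) and without rad50delta (adjusted p = 0.0851).

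GAC1 did not overlap between the times either, at 312.5 to 897.6 at 0 h and 1341.4 to 2983.4 at 4 h, and 14.4% of all tested genes were higher in every strain at 4 h than in any strain at 0 h. Its change of 1.55 ± 0.54 missed the threshold (adjusted p = 0.0591, limma). GLC7 and GLC8 had mean changes of 0.66 each (adjusted p = 0.449 and 0.446).

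**Figure D5:**
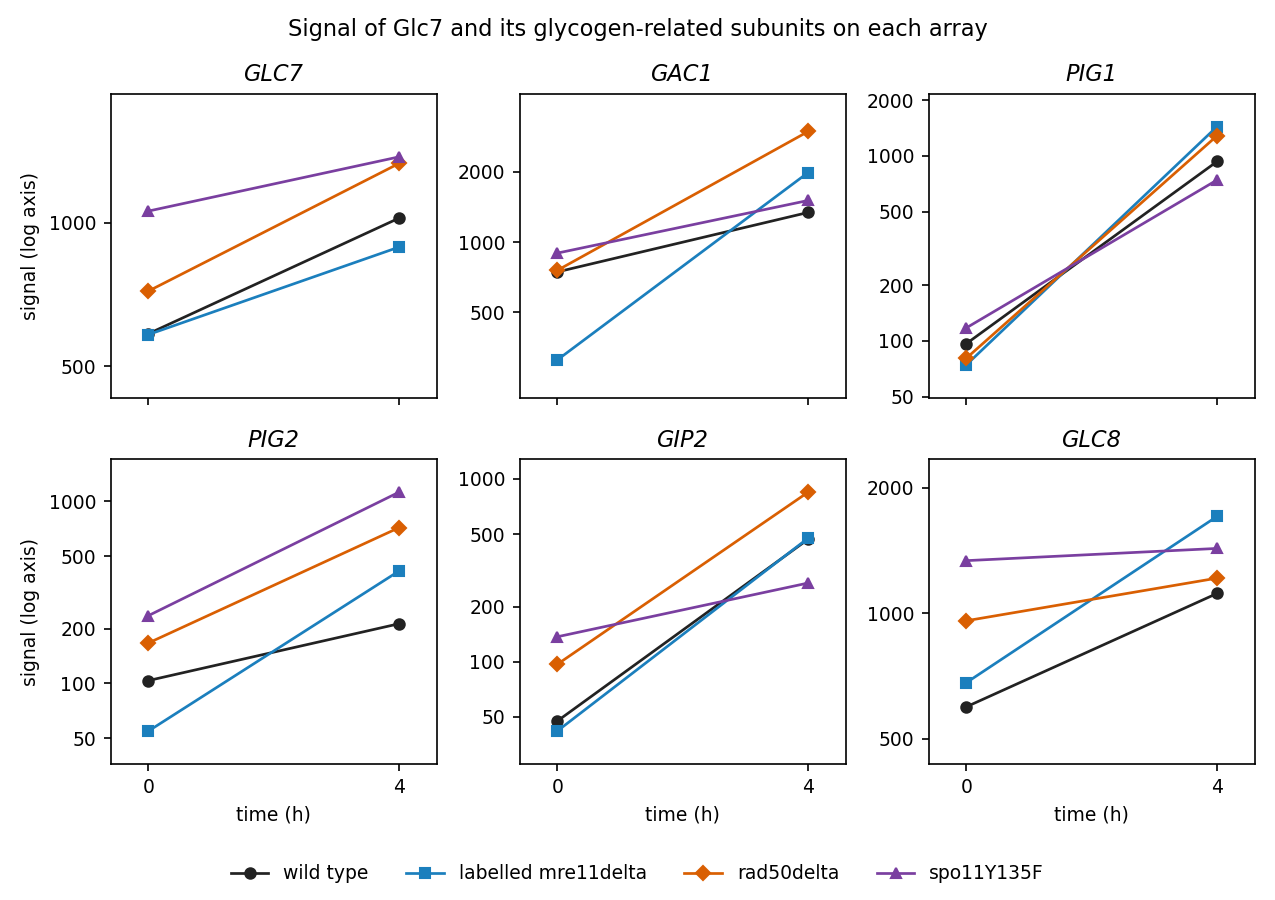
Signal (vertical, log axis, 1 panel per gene with its own range) of GLC7, GAC1, PIG1, PIG2, GIP2 and GLC8 at 0 h and 4 h (horizontal, hours), 1 line per strain. Every line climbs, and the lines of PIG1 nearly coincide.

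Upstream of the synthase, of 6 genes that feed glucose into UDP-glucose 1 fell and 0 rose, against 4.02% and 10.6% of all tested genes. The glucose kinase gene HXK2 (YGL253W) read 4333.0, 3565.5, 2963.1 and 2357.1 at 0 h and 39.2, 328.8, 530.3 and 327.6 at 4 h, and fell by 3.81 ± 0.64 (SE, n = 4 strains), a 14.1-fold decrease (limma adjusted p = 0.000233). PGM1, the minor phosphoglucomutase, had a mean change of -1.20 (limma adjusted p = 0.194), GLK1 of -0.99 (adjusted p = 0.108), HXK1 of -0.74 (adjusted p = 0.32) and PGM2 of 0.88 (adjusted p = 0.248). With median centring 3 of the 6 fell, HXK2, PGM1 and GLK1, as did 560 of all 5475 tested genes.

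Of 12 listed kinases and cyclins that act on the glycogen enzymes, 11 were tested and 0 passed, against 14.6% of all tested genes. At an unadjusted p under 0.05 there was 1, the PAS kinase gene PSK2, with a change of 1.40 ± 0.56 (adjusted p = 0.101, limma). The share of all tested genes under that looser threshold was not counted, so this count has no background. PCL7, a cyclin of Pho85, had a change of 0.90 (adjusted p = 0.338). IGD1, whose product inhibits the debranching enzyme, read 560.6 to 1223.2 at 0 h and 744.3 to 1640.5 at 4 h (adjusted p = 0.691, limma). Of the stress response factors Msn2 and Msn4, MSN4 rose by 2.13 ± 0.62 (adjusted p = 0.0227, limma), from 153.6 to 331.1 at 0 h to 551.4 to 3296.3 at 4 h, and missed the threshold once arrays were median-centred (adjusted p = 0.0584) or quantile-normalized (adjusted p = 0.0665). The pair labelled mre11delta had a 20.6-fold change in MSN4, against 2.18-fold to 3.38-fold in the other strains. Without that pair the change of MSN4 was 1.39 (adjusted p = 0.217, limma), and the call was also lost without rad50delta (adjusted p = 0.0568) and either without wild type or on adding the extraction method to the model (both adjusted p = 0.102). In rad50delta and spo11Y135F alone MSN4 had an adjusted p of 0.114.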

How the data were processed

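The authors computed the deposited signal intensities from Affymetrix YG-S98 arrays with MAS5, per the submitters' processing notes, with its version and the scaling of arrays not given in the sources used here. Of 9335 probe sets, 6504 carry 1 gene, 328 several and 2503 none in the platform annotation. All 6504 matched the reference gene table by identifier. Values were used without further scaling as log2(signal + 7), the 10th percentile of all values being 7, and genes with a mean of at least 21 were tested. The time effect was estimated in R 4.3.3 with limma 3.58.1, strain as block because both times of a label share a strain, with trended eBayes, two-sided, Benjamini-Hochberg over 5475 genes at 0.05. Alternatives changed pseudocount, floor, scaling, block, variance trend, arrays, extraction covariate and probe set. The fit was tested on simulated data. All 8 genes, called members of the related lists and the largest others were named. Genes and lists were chosen with earlier results of these data known.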

Additional observations from a re-analysis of the deposited data

Results flagged for a closer look

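3 of the 8 genes had strains moving at least 2-fold in opposite directions from 0 h to 4 h, each with 1 array per strain and time, so that the difference was not tested. The share of all tested genes that did so was not counted, so this number has no background to be read against. GSY1 had a log2 change of 2.57 in the pair labelled mre11delta and of -1.06 in spo11Y135F. GSY2 had changes of 2.07 and -2.3 in the same strains, and GPH1 of 2.15 and -1.51. The median gene shifted by 0.74 in the pair labelled mre11delta and by -0.12 in spo11Y135F, and both arrays labelled mre11delta were Trizol extracts while both of spo11Y135F were RNeasy extracts. The part of extraction method in these differences was not tested. At neither time did any of the 8 genes have 1 strain far from the other 3 by Dixon's criterion, in 16 sets of 4 values examined.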

How the results depend on the processing

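Of the 8 glycogen genes 1, GLG2, passed the test as reported, and its change ran from 1.59 to 2.27 over 16 alternatives, 13 of which kept the call. Leaving out 1 strain at a time, 0 to 1 of the 8 passed, with 0 without wild type and without rad50delta, and 364 to 888 genes in all passed, the lowest without wild type. With extraction method as a covariate 0 of the 8 and 382 genes passed. Since wild type alone was extracted in 2 ways, this covariate, like leaving out wild type, bases the time effect on the mutants. Within the RNeasy pairs 3 of the 8 (GLG2 and SGA1 higher, GSY2 lower) and 1214 genes passed. With the mean of all probe sets, and with the second probe set of SGA1, 2 passed. Without the replicate block 1 of the 8 and 820 genes passed, and SMK1 lost its call (adjusted p = 0.0514), while GAC1 gained one (adjusted p = 0.0346).

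Signs turned for 10 named genes, none of them called as reported. Within the RNeasy pairs the changes became -0.7 for GSY1, -0.13 for GLG1, -0.25 for GLC3, -0.91 for GPH1, -0.11 for GDB1, -0.06 for PGM2, 0.021 for HXK1, -0.19 for IGD1 and -0.75 for SPS100. Median centring gave -0.25 for GPH1 and -0.018 for IGD1. Leaving out 1 strain at a time gave -0.86 to 0.6 for GSY2 (0.08 without rad50delta), -0.51 to 0.71 for GPH1 and -0.0022 to 0.75 for IGD1. The causes of these turns were not tested. Fewer strains entered the RNeasy and leave-one-out fits, while median centring used all of them. Over the 35 named genes, 503 of the recomputed values kept direction and call, 28 lost the call, 14 gained it and 15 turned sign. PIG1 and HXK2 kept their calls in all 16 alternatives. The number of arrays, 8 in all, limits what could be resolved for the genes that did not pass.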
